A study of Mus musculus with 8 samples.

Results

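Cytl1, Cnmd, Snorc and Ucma encode 4 small proteins made by chondrocytes. They were followed here in RNA-Seq libraries of mouse knee cartilage, as 4 of the 50462 genes in the deposited table. Cytl1 was chosen by its normalised counts in these same libraries, which were lower in operated joints while other chondrocyte markers were higher, and the other 3 genes were taken with it as chondrocyte products of the same kind. The difference between operated and naive joints is therefore what chose Cytl1, and for all 4 genes it is given below as a description with no test.

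Naive mice were untreated wild-type C57Bl/6J males sampled at day 0, aged 11 weeks (n = 4). DMM mice were wild-type males of the same strain whose left medial meniscus was destabilised by cutting the ligament that ties it to the tibia, and they were sampled at day 42, aged 17 weeks (n = 4). Each library came from the medial knee cartilage caps of 1 mouse, and no genetic alteration was present in either group. Surgery was given with buprenorphine and isoflurane, and naive mice were not operated, so that the operation, the drugs given with it and the 6 weeks of added age are confounded and cannot be told apart.

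Cartilage has no vessels, and its chondrocytes live within a matrix that they secrete, made mainly of type II collagen and the proteoglycan aggrecan. Cytl1 (cytokine-like 1) is a small secreted protein that was first found in CD34+ blood progenitors and is strongly made by chondrocytes, where it favours chondrogenic differentiation. Cnmd (chondromodulin) is made as a membrane-bound precursor, and its cleaved end is deposited in the matrix and inhibits vessel growth. Snorc is a small transmembrane chondroitin sulfate proteoglycan of cartilage, so that "secreted" fits it least of the 4. Ucma (unique cartilage matrix-associated protein, also called Gla-rich protein) is secreted and carries many glutamates that are carboxylated in a vitamin K-dependent step.

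The genes lie on 4 chromosomes, and none overlaps another gene model in GENCODE vM21 (GRCm38). Cytl1 (ENSMUSG00000062329) spans 37735519 to 37739820 on the plus strand of chromosome 5, and its longest transcript has 4 exons and 974 bases. Cnmd (ENSMUSG00000022025) spans 79637690 to 79662170 on the minus strand of chromosome 14, with 7 exons and 1433 bases. Snorc (ENSMUSG00000026258) spans 87470271 to 87475482 on the plus strand of chromosome 1, with 3 exons and 557 bases. Ucma (ENSMUSG00000026668) spans 4976122 to 4985748 on the plus strand of chromosome 2, with 5 exons and 847 bases. No 31-base word of Cytl1, Snorc or Ucma transcripts occurred in a transcript of another gene, and 0.107% of those of Cnmd did, so that almost no read of these genes can be shared with another annotated gene.

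Promoters are shown because the levels of the 4 genes moved apart, and the sequence just before the start site is where they can be compared at sight. RefSeq promoters (GRCm38.p6) were matched for 3 of the 4 genes, Cytl1, Cnmd and Ucma. Each line gives the 120 bases before the outermost base of any RefSeq or GENCODE transcript of the gene, 5′ to 3′ on the strand of the gene, with capitals on any of the searched motifs. For Cytl1 and Ucma that base is the start site of the RefSeq promoter, and for Cnmd it is 79662194, which lies 11 bases upstream of the start site of its RefSeq promoter at 79662183. The Cytl1 stretch is chr5:37735399-37735518 (plus strand), the Cnmd stretch is chr14:79662195-79662314 (minus strand) and the Ucma stretch is chr2:4976002-4976121 (plus strand).
Cytl1: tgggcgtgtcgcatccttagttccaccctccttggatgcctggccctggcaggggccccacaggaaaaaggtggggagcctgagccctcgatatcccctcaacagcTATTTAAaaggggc
Cnmd: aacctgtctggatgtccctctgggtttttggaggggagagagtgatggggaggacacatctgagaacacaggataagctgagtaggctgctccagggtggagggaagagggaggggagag
Ucma: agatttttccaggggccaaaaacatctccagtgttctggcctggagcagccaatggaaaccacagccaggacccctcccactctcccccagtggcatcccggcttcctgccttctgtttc

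Both strands of the 250 bases before each RefSeq start site were searched for the TATA box TATAAA, the TATA-like box TATTTAA, the Sox core ACAAT, the Sox9-type site ACAAAG and the E-box CAGCTG, which were chosen after the sequences had been seen. The single match in the 3 promoters was TATTTAA at position -14 of Cytl1, counted from the base before the start site as -1. Among 32851 RefSeq promoters, 0.904% held TATTTAA within 60 bases before the start site and 4.18% within 250 bases. Within 250 bases, 27.7% held the Sox core, 16.5% the Sox9-type site, 13% the E-box and 12.4% the TATA box. The GC content of the 250 bases was 54.8% for Cytl1, 54% for Cnmd and 56.4% for Ucma, near the median of 52.4% over all promoters.

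Values are estimated counts. Normalised counts are these divided by a size factor per library (median of ratios), and a gene was called where the DESeq2 adjusted p was 0.05 or less over all genes and the change was 1.5-fold or more. Total counts ranged from 12479443 to 16548002 per library. Pairs of libraries within a group had correlations of log2 values across genes from 0.977 to 0.989, and no pair was as alike as counting noise allows (the lowest chi-square per degree of freedom was 8.1). The labels give the tissue as cartilage and the cell type as chondrocyte. A list of 15 cartilage matrix and Sox genes, each with counts in some library, was summed. It held 0.302% to 0.491% of all counts in naive and 0.77% to 1.34% in DMM libraries. Counts of these genes do not show that the samples held chondrocytes only. The libraries also held bone and marrow transcripts, with 0.91% to 1.31% of counts in naive and 2.59% to 3.18% in DMM libraries for an osteoblast and osteocyte list, and 0.893% to 1.25% and 0.421% to 0.885% for a neutrophil list. In bulk tissue, fewer cells of a type and less RNA per cell cannot be told apart. All 4 genes passed the filter on low counts.

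Cytl1 had 6176.0, 4371.6, 6698.8 and 7112.6 normalised counts in naive replicates 1 to 4. In DMM replicates 1 to 4 it had 2408.3, 3678.6, 2249.0 and 2221.1. Every naive library lay above every DMM library, with naive 2 the lowest of its group and DMM 2 the highest of its own. The naive mean was 6089.7 ± 1207.8 and the DMM mean 2639.3 ± 697.8 (SD, n = 4 each), which is 2.31-fold lower in DMM, or -1.21 as a log2 fold change. In normalised counts, Cytl1 was the only gene of the 4 whose groups did not overlap. This depends on the scaling. Relative to total counts DMM 2 lay above naive 2, with 3422.0 estimated counts of Cytl1 against 3286.0 in a larger library (12479443 and 12627770 in total). On that scale the groups of Cytl1 overlapped and those of Snorc did not. Over all 18422 genes tested, 9.96% lay wholly lower in DMM and 11.6% wholly higher, and since Cytl1 was chosen for this difference nothing is read from the count. Leaving out a library moved the log2 fold change between -1.41 (without DMM 2) and -1.13.

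Cnmd, the inhibitor of vessel growth, had 170.6, 687.8, 379.9 and 367.4 normalised counts in naive replicates 1 to 4. Its DMM values, in the same order, were 312.6, 361.2, 712.1 and 820.4. The groups overlapped, and the spread within each was wide, with a highest-to-lowest ratio of 4.03 in naive and 2.62 in DMM libraries. The naive mean was 401.4 ± 213.6 and the DMM mean 551.6 ± 252.6 (SD, n = 4 each), a log2 fold change of 0.46, and the difference of the means was smaller than either SD. Single libraries set its size. It was 0.85 without naive 2, and it was 0.21 without naive 1 and likewise without DMM 4.

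Snorc, the transmembrane proteoglycan, had 113.4, 163.6, 163.7 and 128.1 normalised counts in naive replicates 1 to 4. The DMM libraries had 160.1, 178.4, 214.0 and 289.7 in that order. The overlap was slight, since DMM 1 alone fell below naive 2 and naive 3. The naive mean was 142.2 ± 25.5 and the DMM mean 210.6 ± 57.3 (SD, n = 4 each), a log2 fold change of 0.57 that was 0.38 without DMM 4. DMM 3 and DMM 4 were the highest libraries of the DMM group for Snorc and for Cnmd alike, and naive 1 was the lowest of all 8 for both.

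Ucma, the Gla-rich protein, had 95, 109.1, 177.7 and 129.3 normalised counts in naive replicates 1 to 4. The 4 DMM values were 67.2, 88.1, 90.6 and 96.6. The groups overlapped because naive 1 lay just below DMM 4. The naive mean was 127.7 ± 36.1 and the DMM mean 85.6 ± 12.8 (SD, n = 4 each), 1.49-fold lower in DMM and a log2 fold change of -0.58, which was -0.38 without naive 3. Ucma rested on 81 to 166.0 estimated counts per library, for which counting alone gives an error of 11.1% at the lowest, against a spread between mice of 28.3% in naive and 14.9% in DMM libraries (SD as a percentage of the mean). For Cytl1, with 2461.0 to 7023.0 estimated counts, the counting error was at most 2.02%.

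**Figure D1:**
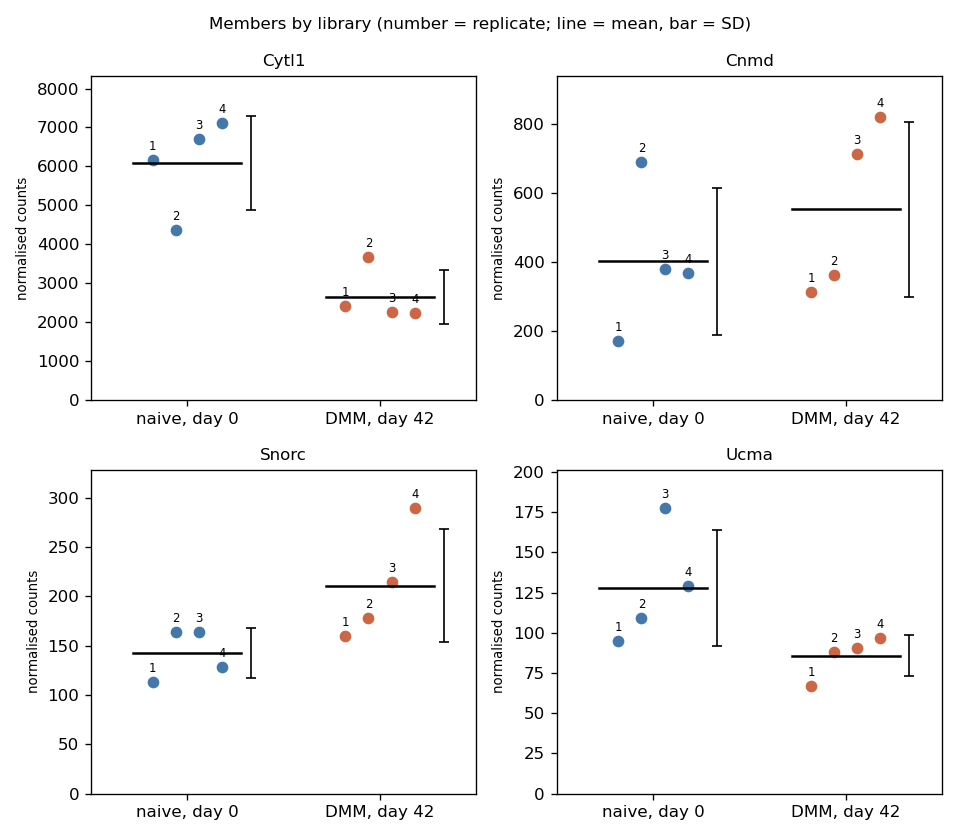
Normalised counts (vertical axes, from 0, a scale for each gene) of Cytl1, Cnmd, Snorc and Ucma in the 4 naive libraries at day 0 and the 4 DMM libraries at day 42. Each point is 1 mouse with its replicate number, the line is the group mean and the bar its SD. The 2 groups are apart for Cytl1, at 4371.6 or more against 3678.6 or less, and overlap for the other 3 genes.

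Per kilobase of the longest transcript, a scale on which levels of different genes can be set side by side, Cytl1 was the most abundant of the 4 in both groups. Its level was 6252.3 ± 1240.1 normalised counts per kilobase in naive and 2709.7 ± 716.4 in DMM cartilage (SD over 4 mice), rank 78 and rank 156 of 14938 protein-coding genes. Cnmd had 280.1 ± 149.1 normalised counts per kilobase in naive and 384.9 ± 176.2 in DMM libraries. Snorc had 255.4 ± 45.8 and 378.0 ± 102.9 on the same scale, so that Cnmd and Snorc did not differ beyond their spread in either group. Ucma was the lowest, at 150.8 ± 42.7 normalised counts per kilobase in naive and 101.1 ± 15.1 in DMM libraries. Its naive range (112.1 to 209.8) overlapped those of Snorc (203.7 to 294.0) and Cnmd (119.1 to 480.0), while its DMM range (79.3 to 114.0) lay below those of both (287.4 to 520.1 and 218.2 to 572.5).

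Among the 4 genes, Cytl1 supplied 82% to 94.2% of their summed normalised counts in naive and 64.8% to 85.4% in DMM libraries. Cnmd supplied 2.6% to 12.9% in naive compared with 8.39% to 23.9% in DMM libraries, Snorc 1.66% to 3.07% compared with 4.14% to 8.45%, and Ucma 1.45% to 2.39% compared with 2.05% to 2.82%. The groups overlapped for Cytl1, Cnmd and Ucma. Since Cytl1 made up most of the sum and was chosen for its lower level, that choice by itself raises the shares of the others. The means of Cnmd and Snorc were also higher in DMM in normalised counts, 1.37-fold and 1.48-fold. The 2 contributions are mixed in the shares, and nothing is read from them.

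To set the 4 genes against other cartilage transcripts within each library, their normalised counts were divided by the sum over the 15 cartilage matrix and Sox genes. Col2a1 made up 34.3% to 55.9% of it. It is a sum of transcripts and does not measure the number of chondrocytes. This sum was 60594.9 ± 16996.9 normalised counts in naive and 133998.7 ± 36094.9 in DMM cartilage (SD over 4 mice), 2.21-fold higher in DMM. Cytl1 equalled 14.3%, 5.3%, 10.4% and 13.6% of the sum in naive replicates 1 to 4. In DMM replicates 1 to 4 it equalled 2.33%, 3.54%, 1.46% and 1.27%, below every naive library. Cytl1 was chosen for falling against genes of this kind, so this separation follows from the choice and nothing is read from it. The mean log2 ratio was -3.30 ± 0.66 in naive and -5.66 ± 0.67 in DMM cartilage (SD over 4 mice), a difference of -2.36, or -2.31 with Acan alone as the reference.

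Ucma equalled 0.132% to 0.276% of the cartilage sum in naive and 0.0552% to 0.0849% in DMM libraries, with no overlap. Snorc equalled 0.198% to 0.263% in naive and 0.139% to 0.172% in DMM libraries, likewise with no overlap. Cnmd overlapped, at 0.395% to 0.834% in naive and 0.302% to 0.469% in DMM libraries. Of all genes tested, 59.3% lay wholly lower in DMM on this relative scale, and 69.1% did so relative to Acan. A lower ratio is thus what most genes showed, and Snorc was higher in DMM in normalised counts.

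**Figure D2:**
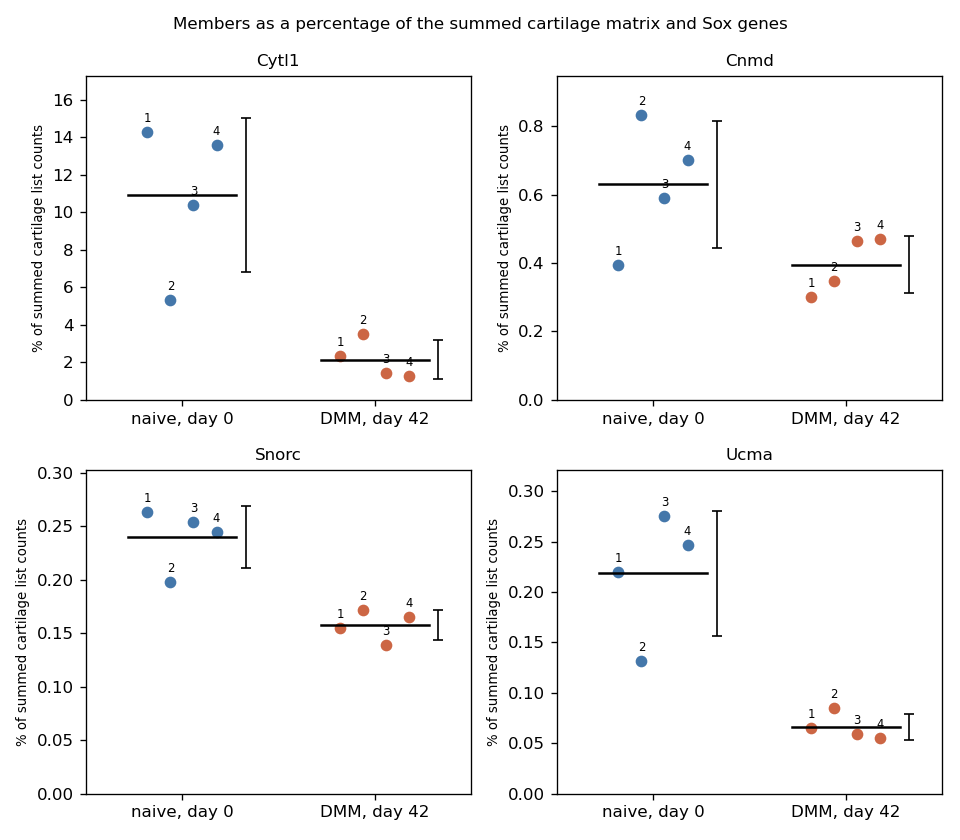
Each gene as a percentage of the summed normalised counts of the 15 cartilage matrix and Sox genes in the same library (vertical axes, from 0, a scale for each gene). Each point is 1 mouse with its replicate number, the line is the group mean and the bar its SD. Cytl1, which was chosen for falling against such genes, lies at 5.3% or more in naive and at 3.54% or less in DMM libraries. Cnmd is the gene whose groups overlap.

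Lists of related genes gave the setting of these levels. Over all 18422 genes tested, 13.2% were called, 7.47% higher and 5.7% lower in DMM, and the median log2 fold change was -0.01. Of the cartilage matrix and Sox genes, 14 of 15 could be tested, 7 were called higher, none lower, and the median log2 fold change was 0.78. The other 7 tested genes were not called. As Cytl1 was chosen against genes of this kind, those that rose are not independent of that choice. Comp, a matrix protein that binds collagen, was higher by 1.35 in log2 (DESeq2 adjusted p = 6.64e-09), Acan had 1.09 (DESeq2 adjusted p = 8.04e-09) and Sox9, the main transcription factor of chondrocytes, had 1.07 (DESeq2 adjusted p = 5.55e-07). Col2a1 rose by 1.41 in log2 (DESeq2 adjusted p = 0.00727). Whichever of the 8 libraries was left out, all 4 were called. Sox6, a partner of Sox9 that is named here after its values were seen, had 1578.3 to 2047.4 normalised counts in naive and 960.0 to 1574.0 in DMM libraries, with no overlap. Its log2 fold change of -0.57 missed the 1.5-fold limit (DESeq2 adjusted p = 0.00576), and it was called in 3 of the 8 fits without a library. Col9a1 (-0.36) and Matn3 (-0.29) also had negative log2 fold changes and were not called. Their standard errors, 0.87 and 0.93, were larger than the changes. Both genes were highest in naive 2, at 1710.8 and 329.9 normalised counts, so no direction is read from them.

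Other small secreted proteins of cartilage gave 11 tested genes of 12, with 6 called higher, none lower, and a median log2 fold change of 0.79. Mgp, a Gla protein that inhibits calcification, had 797.6 to 1207.5 normalised counts in naive and 1618.0 to 2914.2 in DMM libraries, and rose by 1.13 (DESeq2 adjusted p = 3.72e-07). Fibin, a secreted protein, rose by 0.89 (DESeq2 adjusted p = 0.000355). Mia, a small secreted chondrocyte protein, had 27.8 to 61.2 normalised counts in naive and 29.9 to 40.3 in DMM libraries (DESeq2 adjusted p = 0.854), with the limit that transcripts of other genes hold 37.2% of its 31-base words. Tnmd (tenomodulin), the nearest relative of Cnmd and a tendon protein, had 7.04, 2.66, 16.1 and 14.7 normalised counts in naive replicates 1 to 4. In DMM replicates 1 to 4 it had 69.7, 17.2, 153.9 and 33.4, a rise of 2.76 (DESeq2 adjusted p = 0.000239). A tendon and ligament list that includes Tnmd held 0.0251% to 0.0466% of counts in naive and 0.0712% to 0.112% in DMM libraries, with 4 of its 6 genes called higher, and its part in the rise of Tnmd was not tested.

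Gla proteins and genes that process the proteins were counted next, since Ucma needs vitamin K-dependent carboxylation and the precursors of Cnmd and Ucma are cut by furin-type proteases. Of 12 genes of Gla proteins, the vitamin K cycle and proprotein convertases, all were tested, 7 were called higher and none lower (median log2 fold change 0.65). Of the 7, 4 are Gla proteins like Ucma itself and not enzymes, namely Mgp, Bglap, Bglap2 and Gas6, and 3 are enzymes. Bglap and Bglap2 are bone proteins whose reads are largely shared, with 62.9% and 95.2% of their 31-base words in other genes, and Gas6 was called in 3 of the 8 fits without a library. Ggcx, the carboxylase, had 179.4 to 273.3 normalised counts in naive and 371.9 to 482.4 in DMM libraries, and rose by 0.92 (DESeq2 adjusted p = 7.69e-07). Vkorc1, which recycles vitamin K, rose by 0.82 (DESeq2 adjusted p = 1.27e-05), although other genes hold 46% of its 31-base words. Pcsk5, a proprotein convertase, rose by 1.25 (DESeq2 adjusted p = 1.42e-14), while Furin, with a log2 fold change of 0.32, missed the 1.5-fold limit (DESeq2 adjusted p = 0.0314). Ccr2, a chemokine receptor proposed to bind Cytl1, had a log2 fold change of -0.33 and was not called (DESeq2 adjusted p = 0.115).

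Genes of cartilage zones were counted in the same way. Of 15 growth plate zone genes, 8 were called higher and 1 lower (median log2 fold change 0.77). Pth1r, the parathyroid hormone receptor of prehypertrophic cells, rose by 1.19 (DESeq2 adjusted p = 1.29e-19), and Alpl, the phosphatase of mineralising cells, rose by 1.33 (DESeq2 adjusted p = 2.05e-11). Alpl and Ibsp, which was also called higher, belong to the osteoblast and osteocyte list too, of which 9 of 10 genes were called higher, and the part of bone cells in these counts was not tested. Grem1, a secreted BMP antagonist, was the gene called lower. It had 833.7, 497.6, 934.3 and 566.9 normalised counts in naive replicates 1 to 4, and 192.4, 277.3, 122.7 and 286.1 in DMM replicates 1 to 4, so that the groups did not overlap (log2 fold change -1.69, DESeq2 adjusted p = 4.8e-08). Of 10 articular surface genes, 3 were called higher and none lower, with a median log2 fold change of 0.11. The other 7 were not called, and 4 of them had negative log2 fold changes, with -0.54 for Prg4, -0.37 for Clu, -0.18 for Cilp and -0.01 for Erg. Dkk3, a secreted Wnt modulator, rose by 1.79 (DESeq2 adjusted p = 1.96e-09) and Abi3bp, a matrix protein, by 1.44 (DESeq2 adjusted p = 0.00103). Gdf5, a joint morphogen at 3.52 to 33.2 normalised counts, rose by 1.77 (DESeq2 adjusted p = 0.00643) and was called in the 4 of 8 fits without a library that gave it an adjusted p, while the other 4 gave none at its low level, and other genes hold 39.7% of its 31-base words.

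**Figure D3:**
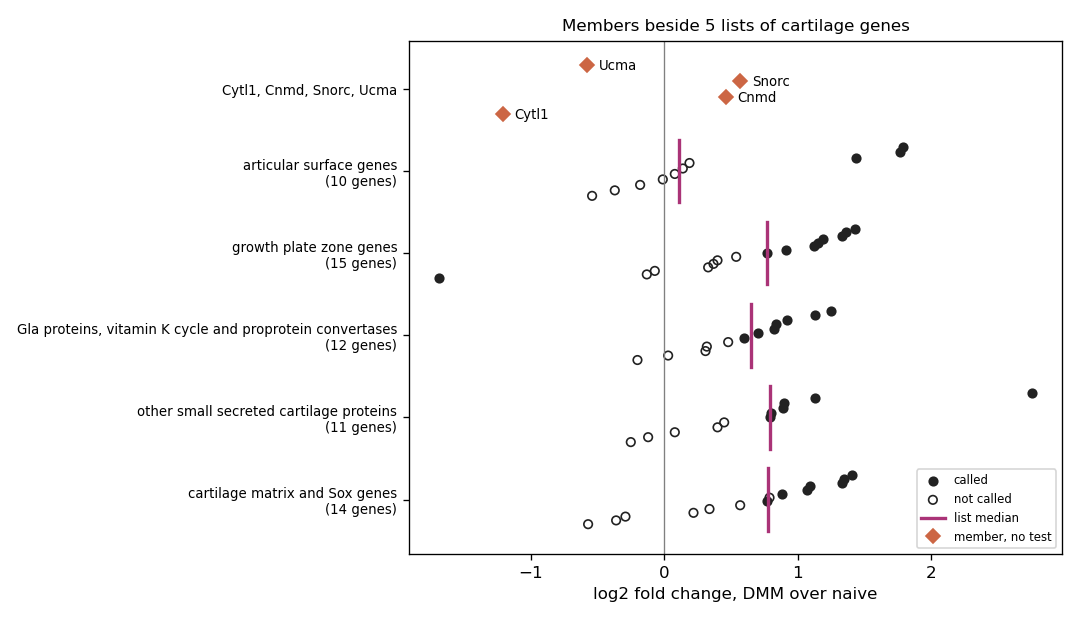
Log2 fold change of DMM over naive (horizontal axis) for each tested gene of the 5 lists and for the 4 genes described here (diamonds, no test). Filled circles were called, open circles were not, and bars are list medians. Cytl1, at -1.21, and Ucma, at -0.58, lie below every tested gene of the lists except Grem1, at -1.69, with Sox6 (-0.57) close to Ucma. Cytl1 was chosen for its low value, so nothing is read from its place. Cnmd (0.46) and Snorc (0.57) lie on the side of the list medians.

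Transcripts of other cell types also differed between the groups. Of 10 neutrophil genes, 9 were called lower in DMM, and of 9 erythroid genes 8 were, with 1.08% to 1.81% of counts in naive and 0.598% to 1.26% in DMM libraries for the erythroid list. Because Cytl1 is also known from blood progenitors, a haematopoietic stem and progenitor list was summed. It held 0.014% to 0.016% of counts in naive and 0.0135% to 0.0162% in DMM libraries, a difference with p = 0.429 in a two-sided exact permutation test, with 2 of 10 genes called lower and none higher, and Kit and Cd34 its most abundant genes. The shares of the cartilage, neutrophil, osteoblast, fibroblast and tendon lists each differed with the smallest p the design allows (exact permutation test, two-sided p = 0.0286, adjusted over 11 lists 0.0629). Of the fibroblast and synovium list 8 of 9 genes were called higher, with 1.35% to 2.03% of counts in naive and 3.79% to 5.29% in DMM libraries. Col1a1 belongs to this list and to the osteoblast and osteocyte list and is the most abundant gene of each. The shares of these lists are therefore not independent. No gene of any list was at 0 in all libraries. The part of these cells in the levels of the 4 genes was not tested.

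Every gene with a mean of 100 or more normalised counts was then compared with each of the 4 over the 8 libraries, by the root mean square difference of log2 normalised counts centred on the mean of each gene. This measure includes the difference between the groups and is a description only. Of 11013 genes, the nearest to Cytl1 were Trim5 (0.29), a relative of antiviral restriction factors whose reads may be split with close copies, Nop56 (0.30), a protein of ribosome assembly, and the long noncoding 1810032O08Rik (0.31), against a median of 0.68. Trim5 shared with Cytl1 the lowest naive value in naive 2, at 310.0 normalised counts, where naive 1, 3 and 4 had 386.4 to 400.2. Nop56 had 3665.2 normalised counts in naive 2, where it did not show the low value of Cytl1, and 2009.2 in DMM 2, where it did not show the high one.

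The genes nearest to Cnmd were Col9a3 (0.21) and Col9a2 (0.27), which encode chains of type IX collagen, and Ppa1 (0.29), an inorganic pyrophosphatase, against a median of 0.73. Col9a3 had 382.5, 1287.8, 849.8 and 623.6 normalised counts in naive replicates 1 to 4. The DMM values were 609.5, 698.7, 1199.4 and 1153.4. As for Cnmd, naive 1 was the lowest library, naive 2 the highest of its group, and DMM 3 and DMM 4 were above DMM 1 and DMM 2. Some other genes of the cartilage lists, picked out after their values were seen, had the same high value in naive 2. Col9a1 had 1710.8 normalised counts there and 98.5 to 540.5 in the other naive libraries, and Matn3, a cartilage matrix protein, had 329.9 and 18.5 to 86.7. Prg4, the lubricant of the joint surface, had 30377.6 normalised counts in naive 2, the lowest of the naive group, as was Cytl1.

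Snorc had the nearest neighbours of the 4 genes. They were Chst11 (0.10), which sulfates chondroitin, Papss2 (0.14), which makes the sulfate donor, and Wwp2 (0.16), a ubiquitin ligase gene of cartilage, against a median of 0.45. Chst11 had 822.2, 1040.3, 1095.9 and 888.9 normalised counts in naive replicates 1 to 4. The DMM values were 1132.8, 1306.1, 1389.6 and 1688.6, so that its groups did not overlap and DMM 4 was highest, as for Snorc. Snorc and Cnmd differed by 0.44 on this measure, the closest pair among the 4 genes. That value was near the median of 0.45 between Snorc and all genes compared, and below the median of 0.73 for Cnmd. The measure is also smaller for genes that vary little.

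The genes nearest to Ucma were AC125059.3 (0.15), an antisense gene model whose reads cannot be told from those of its partner if strand was not used, and Pon2 (0.16), a paraoxonase, against a median of 0.43. Pon2 had 721.1, 779.6, 1048.9 and 935.4 normalised counts in naive replicates 1 to 4. The DMM values were 520.0, 555.8, 507.1 and 616.4. Naive 3 was the highest library for Ucma and for both of these genes. Ucma differed from Cytl1 by 0.48, less than from Snorc (0.59) or Cnmd (0.79). That value was above the median of 0.43 between Ucma and all genes compared, and below the median of 0.68 for Cytl1. Cytl1 and Cnmd were the farthest pair, at 1.21.

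**Figure D4:**
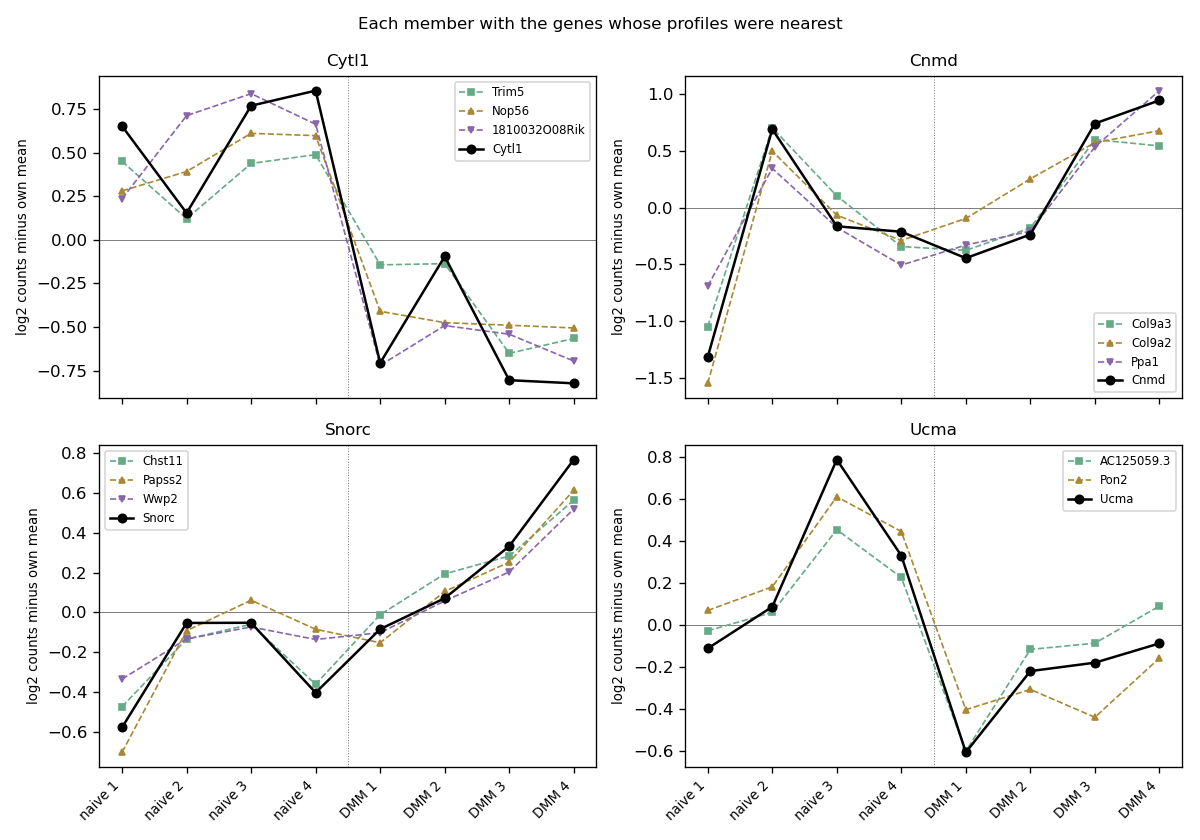
Log2 normalised counts minus the mean of each gene over the 8 libraries (vertical axes), for each of the 4 genes (black) and the genes nearest to it, as named in the text. Libraries are on the horizontal axis, naive left and DMM right of the dotted line, and lines between mice only guide the eye. Cnmd and its neighbours share a low naive 1 and a high naive 2, and Snorc and its neighbours are highest in DMM 4.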

How the data were processed

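RNA-Seq libraries of medial knee cartilage from 4 naive and 4 DMM mice were analysed. The authors trimmed reads with Trimmomatic, pseudo-aligned them with Kallisto and summed transcripts to genes with tximport, and deposited estimated counts per gene. Of these values 39% are not whole, and they were rounded before testing. The methods name GRCm38 with an Ensembl release, the submitters' processing notes name kallisto, DESeq2 and a human build, and the methods and labels name different library kits, which was not resolved. Symbols and positions are from GENCODE vM21 (48855 of 50462 identifiers had a symbol).

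All 8 libraries entered a DESeq2 fit (version 1.42.0, under R 4.3.3) with the Wald test named in the methods of the study, no covariates and unshrunken log2 fold changes. Shares of lists were compared by permuting group labels exactly (70 assignments, two-sided, smallest p 0.0286). Likeness used a pseudocount of 1. P-values set the difference between the groups against the spread between mice.

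Named were the 4 genes, in each list the 3 genes with the smallest adjusted p and any called against the list, 10 set partner and reference genes, and 3 nearest neighbours per gene, of which 1 is not reported here. Genes and lists were chosen with earlier results of these data known. Alternatives were edgeR version 4.0.16 (quasi-likelihood), TMM factors, total count scaling, a filter of 10 counts in 4 libraries, a replicate block, other reference genes and leaving out each library.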

Additional observations from a re-analysis of the deposited data

Results flagged for a closer look

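Of 70 groups of 4 values examined (normalised counts of named genes, the ratio of Cytl1 to the cartilage sum and shares of lists), 5 held a single distant value by Dixon's test at the 95% level, where chance gives about 3.5. Cytl1 had 3678.6 normalised counts in DMM 2, compared with 2221.1 to 2408.3 in the other DMM libraries. Without DMM 2 its log2 fold change was -1.41. Sox9 had 918.3 normalised counts in naive 3 and 804.9 to 817.0 in the other naive libraries. The erythroid list held 1.26% of counts in DMM 3 (0.598% to 0.653% in the others), and the tendon and ligament list held 0.112% there (0.0712% to 0.078%). The skeletal muscle list held 0.0265% of counts in DMM 1 (0.00169% to 0.00342%).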

How the results depend on the processing

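The log2 fold changes of the 4 genes kept their sign and moved by less than the spread between mice in each alternative run. Across the 8 fits that left out a library they ranged from -1.41 to -1.13 for Cytl1, 0.21 to 0.85 for Cnmd, 0.38 to 0.68 for Snorc and -0.70 to -0.38 for Ucma, and the Cytl1 log2 ratio to the cartilage sum from -2.68 to -2.15. Scaling by total counts shifted the centre of the fold changes (median log2 fold change 0.14 instead of -0.01 where the mean was at least 10 normalised counts), and gave -1.07, 0.66, 0.73 and -0.43 for Cytl1, Cnmd, Snorc and Ucma. Under it 80.7% of 2521 called genes were higher in DMM, compared with 56.7% of 2426, and edgeR called 2082 genes. With total count scaling the groups of Cytl1 overlapped, as DMM 2 lay above naive 2, and those of Snorc did not. The separation of the groups therefore depended on the scaling for both genes. Called genes in the 5 lists numbered 7, 6, 7, 9 and 3 in the order given in the text, and each count stayed within 1.5 times of these.

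Replicate numbers 1 to 4 occur in both groups and name no shared animal or batch. Deviations from the group means correlated by 0.05, 0.06, -0.12 and 0.12 between libraries of equal number, so the numbers were not taken as pairs. With the replicate block 2076 genes were called in all and 10 cartilage matrix and Sox genes, 9 higher and 1 lower. Log2 fold changes were -1.22, 0.53, 0.55 and -0.56 for Cytl1, Cnmd, Snorc and Ucma with the block. Depth limits Ucma and Snorc most, at 81 and 113.0 estimated counts in their lowest libraries.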
